A study of Oryza sativa Japonica Group with 6 samples.

Results

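The transcripts described here are those of rice seedling shoots whose level was highest after rehydration. A transcript was taken when the lower of its 2 rehydration values was at least 2 times the highest of the other 4 values and its mean after rehydration was at least 10 RPKM, the unit that corrects reads for transcript length and for the mapped reads of the library. Of 66153 transcript models from 55801 loci, 45 transcripts from 44 loci met this rule. The transcripts were chosen by their rehydration values, so their level after rehydration relative to the other conditions is given as a description without a test. In the whole table, 26790 transcripts reached 1 RPKM in 2 or more of the 6 libraries and were tested, and in 2111 of these (7.88%) both rehydration values lay above the other 4. All 45 transcripts were among the tested ones, and 41 of them also reached that level in at least 2 libraries outside rehydration.

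RNA was sequenced from shoots of wild-type Nipponbare, a Japonica rice cultivar, in 3 conditions with 2 biological replicates each. The rehydration group was re-watered for 24 h after 8 h of air-drying and sampled at 11 days of age. Dehydrated seedlings were sampled at 10 days of age after 8 h of air-drying, and control seedlings of the same age were left untreated. A library represents 20 pooled plants grown on a gelled medium in continuous light. Rehydrated shoots were sampled only from the older seedlings, so that 1 day of age and re-watering cannot be told apart. In bulk shoot RNA, fewer cells of a type and less RNA per cell cannot be told apart either. The study states that its rehydrated shoots held both recovered and damaged tissue, so a rehydration value combines the levels of both.

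Drying of a shoot slows growth and photosynthesis and switches on genes that protect cells from water loss, many of them through abscisic acid (ABA). When water returns, turgor is regained, cell walls can extend again and the shoot rebuilds its photosynthetic proteins, while leaf tissue that was damaged has to be sealed and defended. Genes known for these tasks include expansins, which loosen the cell wall, and the chitinases, glucanases and proteinase inhibitors of the defence and wound response.

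The tissue label was checked with the green-shoot markers. The chlorophyll a/b binding protein transcript LOC_Os11g13890_1 was at 1367 and 1063 RPKM after rehydration, 34.6 and 74.0 RPKM after dehydration and 1556 and 1252 RPKM in the control, and plastidic glutamine synthetase OsGS2 (LOC_Os04g56400_1) at 811 and 650, 101 and 209, and 1126 and 791 RPKM in the same order of conditions. Protochlorophyllide oxidoreductase (LOC_Os10g35370_1) and ferredoxin-dependent glutamate synthase (LOC_Os07g46460_1) were also present in all 6 libraries. The depth of the libraries relative to the first control library, read from the steps between low values, was between 0.862 and 1.

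Primers for quantitative RT-PCR had been designed for a pair of these genes, the cytochrome P450 LOC_Os02g02230 on chromosome 2 and CHIT3 (LOC_Os04g41680) on chromosome 4. They are shown because they mark where these transcripts can be measured apart from sequencing. The study measured both genes by this method and reported them raised after rehydration, which was not examined here. The primers are given from 5′ to 3′, in lower case, with F for forward and R for reverse.
LOC_Os02g02230_F: tccatgagctcttcgacaac
LOC_Os02g02230_R: tctcattctcggtcatgcag
LOC_Os04g41680_F: gctcatcgatcaggactgaa
LOC_Os04g41680_R: tagtgtactctatgctcatc

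The 45 transcripts spanned mean rehydration levels between 10.4 and 588 RPKM, with a median of 28.7 RPKM. In 12 of them the mean was over 100 RPKM, and in 18 it was under 20 RPKM. Summed over the 45, the level was 4289 and 3452 RPKM after rehydration, 745 and 632 RPKM after dehydration and 481 and 665 RPKM in the control. This was 0.748% and 0.613% of all RPKM of a library after rehydration, 0.132% and 0.117% after dehydration and 0.0849% and 0.120% in the control. The ratio of the lower rehydration value to the highest other value lay between 2.02 and 146 with a median of 2.85, and it was over 3 in 22 transcripts and over 5 in 9. The mean after rehydration was at least 2.22 times the mean after dehydration (median 5.67 over the 43 transcripts with a value above 0) and at least 2.07 times the control mean (median 5.10 over 44 transcripts). The highest of the other 4 values was a control value in 27 transcripts and a dehydration value in 18.

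**Figure D1:**
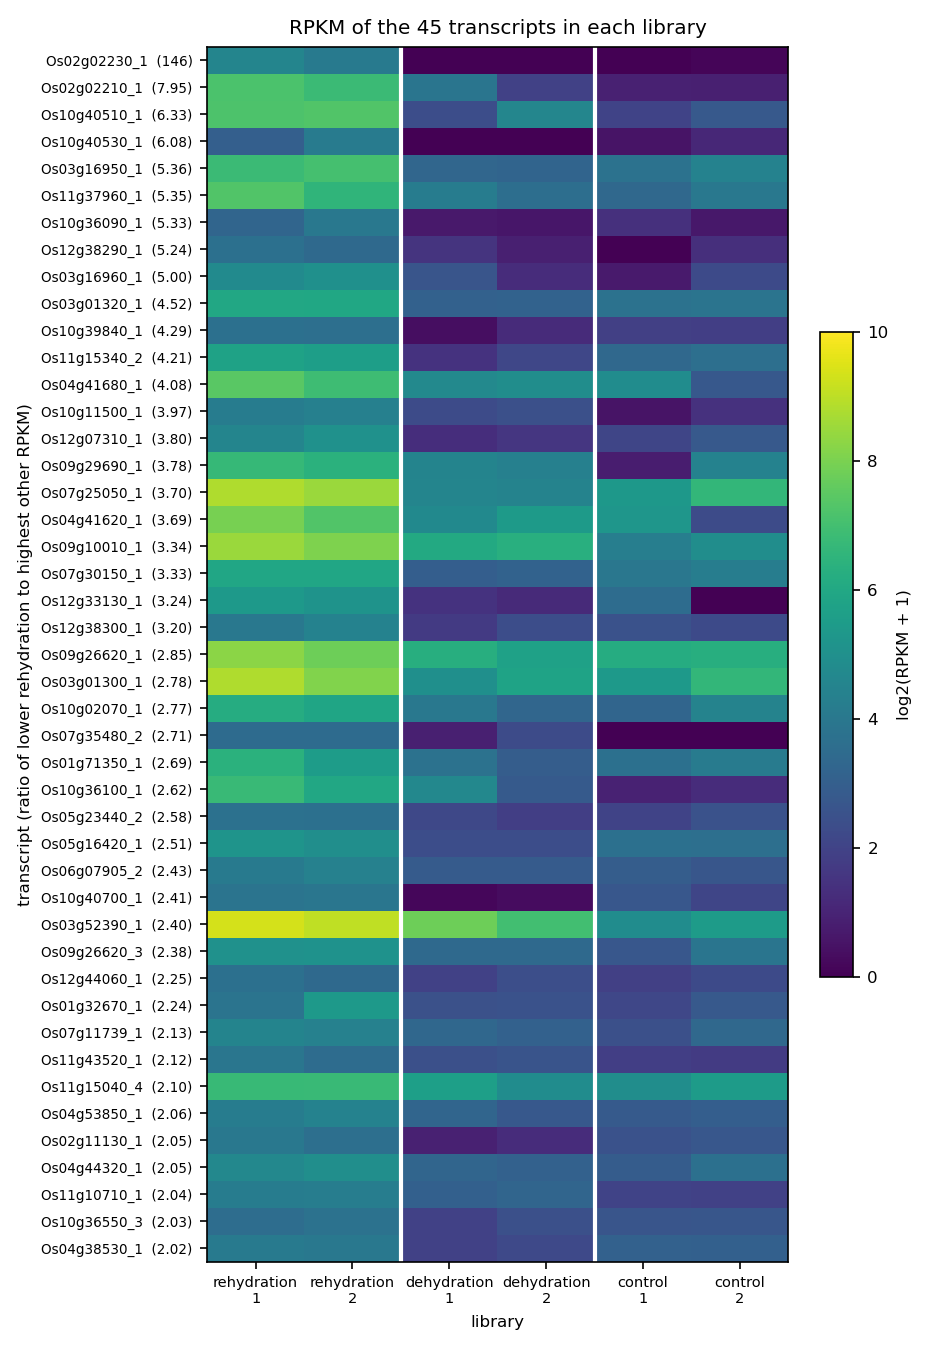
Level of the 45 transcripts in each of the 6 libraries, as log2(RPKM + 1) on a color scale from 0 to 10, with 1 row per transcript in falling order of the ratio of the lower rehydration value to the highest other value (in brackets). The rehydration columns stand out in every row because the rule chose them so, and the dehydration and control columns are alike in some rows and far apart in others, such as those of LOC_Os10g40700_1 and LOC_Os03g52390_1.

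Descriptions for the transcripts came from the supplementary tables and text of the study, and they named 9 of the 45. The remaining 36 are given by locus name. Several of the named ones belong to families of defence and of the cell wall, which is not a result about the set, since most of it has no description. LOC_Os03g52390_1, PIII1, a precursor of the proteinase inhibitor II family whose members block serine proteinases and are known as wound-induced in tomato and potato, was the most abundant of the 45. PIII1 was at 647 and 529 RPKM after rehydration, 221 and 125 RPKM after dehydration and 27.8 and 43.6 RPKM in the control. The 3 conditions did not overlap, with dehydration between the other two, and the rehydration mean was 3.41 times the dehydration mean and 16.5 times the control mean.

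LOC_Os04g41680_1 (CHIT3), by its name a chitinase, an enzyme class that cleaves the chitin of fungal walls, was at 173 and 117 RPKM after rehydration, 25.2 and 28.7 RPKM after dehydration and 28.3 and 5.75 RPKM in the control. The control libraries of CHIT3 were far apart, and the higher of them lay between the dehydration values. LOC_Os07g35480_2, a glycoside hydrolase of family 17, the family that holds the plant glucanases of defence and cell wall turnover, was at 10.4 and 10.4 RPKM after rehydration, 0.839 and 3.82 RPKM after dehydration and listed at 0 in both control libraries. Its levels were among the lowest of the set, and the 2 other models of its locus are described with the loci of several models.

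LOC_Os02g02230_1, a cytochrome P450, one of the heme monooxygenases that plants use in hormone and defence metabolism, had the largest ratio. It was at 22.6 and 16.3 RPKM after rehydration, listed at 0 in both dehydration libraries, and in the control listed at 0 in the first library and at 0.112 RPKM in the second. The ratio of 146 thus rested on a single low value. Corrected for relative depth, the rehydration values were 206 and 137 times that value, both whole multiples. If that control value stands for 1 read, the ratio has a wide counting error. The rule also chose the transcript by this same ratio, so its size is only a description.

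LOC_Os02g02210_1, an aminotransferase, an enzyme that moves amino groups between amino acids and keto acids, lies 2 locus steps from the P450 on chromosome 2. It was at 142 and 111 RPKM after rehydration, 13.9 and 2.87 RPKM after dehydration and 0.885 and 0.856 RPKM in the control. The dehydration libraries differed from each other but both lay above both control libraries, and the rehydration mean was 15.1 times the dehydration mean and 145 times the control mean. LOC_Os07g30150_1, similar to adenine phosphoribosyltransferase, the enzyme that salvages adenine into the nucleotide pool, was at 59.5 and 59.0 RPKM after rehydration, 7.01 and 7.76 RPKM after dehydration and 14.7 and 17.7 RPKM in the control. Here the dehydration values were the lowest of the 3 conditions and the replicates lay close together.

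Other members with a description were a β-expansin and a dormancy/auxin associated protein. LOC_Os10g40700_1, a β-expansin precursor, of the family that loosens grass cell walls, was at 13.3 and 14.1 RPKM after rehydration, 0.142 and 0.258 RPKM after dehydration and 5.51 and 3.21 RPKM in the control. It was nearly absent after dehydration, and its rehydration mean was 68.5 times the dehydration mean and 3.14 times the control mean. LOC_Os09g26620_1, of the dormancy/auxin associated family, which is known from resting buds of pea and Arabidopsis, was at 306 and 219 RPKM after rehydration, 75.3 and 51.3 RPKM after dehydration and 72.3 and 76.8 RPKM in the control. Its dehydration and control values overlapped. The second model of this locus in the set, LOC_Os09g26620_3, was at 32.5 and 33.1 RPKM after rehydration, 9.76 and 9.77 RPKM after dehydration and 5.55 and 13.7 RPKM in the control. LOC_Os09g10010_1, described only as a conserved hypothetical protein, was at 361 and 264 RPKM after rehydration, 66.9 and 79.0 RPKM after dehydration and 18.3 and 29.1 RPKM in the control, with no overlap between conditions.

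**Figure D2:**
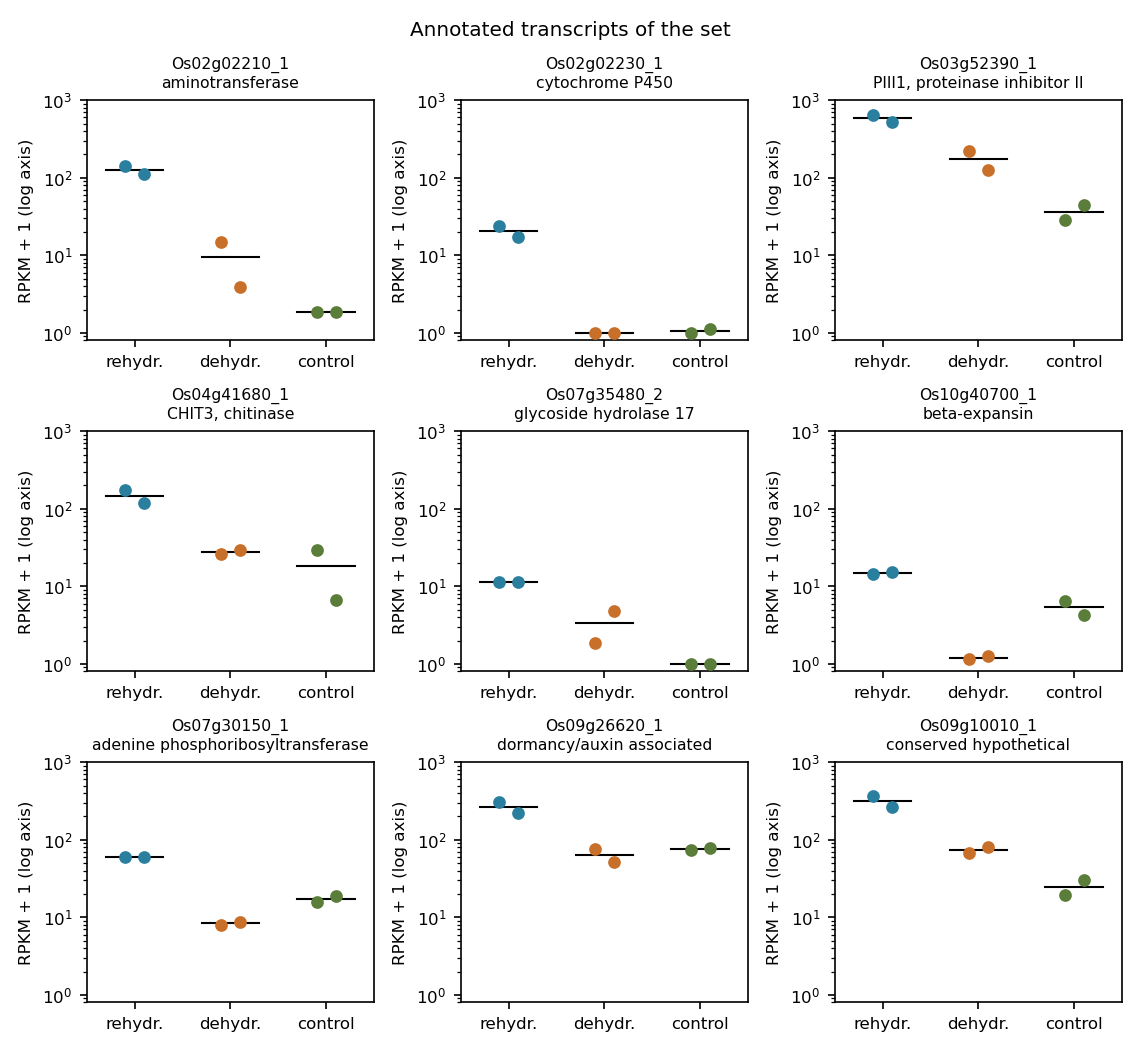
RPKM + 1 on a log axis for the 9 annotated transcripts after rehydration, after dehydration and in the control. Points are the 2 libraries of a condition and bars are their mean, and the control points are far apart for CHIT3 while the dehydration points are the lowest for the β-expansin and the adenine phosphoribosyltransferase.

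Among the transcripts without a description, LOC_Os07g25050_1 and LOC_Os03g01300_1 were the most abundant after rehydration. LOC_Os07g25050_1 was at 444 and 364 RPKM after rehydration, 22.5 and 21.0 RPKM after dehydration and 39.0 and 98.3 RPKM in the control. LOC_Os03g01300_1 was at 447 and 271 RPKM after rehydration, 30.6 and 55.2 RPKM after dehydration and 40.7 and 97.7 RPKM in the control. In both, the second control library was more than 2-fold above the first. LOC_Os11g37960_1 was at 156 and 92.6 RPKM after rehydration, 17.3 and 11.3 RPKM after dehydration and 9.49 and 15.1 RPKM in the control, with overlapping dehydration and control values.

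The replicates of the control differed widely in part of the set. On the log2(RPKM + 1) scale the 2 control libraries differed by over 2-fold in 10 of the 45 transcripts, against 4.02% of the 10004 transcripts with a mean of at least 10 RPKM after rehydration. The first control library was the higher one in 3 of the 10, CHIT3, LOC_Os04g41620_1 and LOC_Os12g33130_1, and the second in the other 7. The largest gaps were those of LOC_Os09g29690_1, at 0.729 and 20.6 RPKM in the control, and LOC_Os12g33130_1, at 10.7 and 0 RPKM. Within the interquartile range of the control means of the set, 2.89 to 14.5 RPKM, 3 of 23 differed by over 2-fold, beside 6.95% of 2863 transcripts. The dehydration libraries differed by over 2-fold in 5 transcripts (9.18% of the 10004) and the rehydration libraries in 2 (3.78%), LOC_Os01g32670_1, at 13.3 and 40.5 RPKM, and LOC_Os10g40530_1, at 7.07 and 16.9 RPKM.

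Position in the genome was not used by the rule. By the locus names of the MSU annotation, which number loci along each chromosome, 9 of the 45 transcripts lay on chromosome 10, which holds 4.98% of the 10004 transcripts with a mean of at least 10 RPKM after rehydration. Chromosomes 3, 4, 11 and 12 held 5 each and chromosome 8 none. On chromosome 10, 7 of the 9 had locus numbers between 36090 and 40700, a stretch chosen after its values were seen, where they made up 6.73% of the 104 such transcripts, against 0.45% in the whole genome. Of the 44 loci, 14 had another of the 44 within 10 locus steps (a difference of 100 in the locus number). Among all 161 loci with a transcript of that level within this distance of one of the 44, 14 (8.7%) were themselves in the set, against 0.476% of all loci of that level.

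The 14 loci formed 7 pairs. The pair on chromosome 2 was the aminotransferase and the P450 described above. On chromosome 10, LOC_Os10g40510_1 was at 145 and 153 RPKM after rehydration, 4.19 and 22.9 RPKM after dehydration and 2.99 and 5.86 RPKM in the control. LOC_Os10g40530_1 was at 7.07 and 16.9 RPKM after rehydration, listed at 0 in both dehydration libraries and at 0.428 and 1.16 RPKM in the control. LOC_Os10g40520_1, between them, just missed the rule with 44.8 and 63.0 RPKM after rehydration, 2.23 and 7.20 RPKM after dehydration and 19.9 and 22.6 RPKM in the control. The 3 neighbours shared the highest values after rehydration, but their order in the other conditions differed, since the dehydration values were the lowest for LOC_Os10g40520_1 and LOC_Os10g40530_1 and overlapped the control for LOC_Os10g40510_1.

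The pair on chromosome 4 was CHIT3 and LOC_Os04g41620_1, which was at 246 and 157 RPKM after rehydration, 25.9 and 42.6 RPKM after dehydration and 37.6 and 3.90 RPKM in the control. LOC_Os04g41640_1, between them and outside the set, was at 72.3 and 48.7 RPKM after rehydration, 18.3 and 27.2 RPKM after dehydration and 87.5 and 14.2 RPKM in the control. All 3 were far higher in the first control library than in the second. On chromosome 3, LOC_Os03g01300_1 lay near LOC_Os03g01320_1, at 63.4 and 61.4 RPKM after rehydration, 7.56 and 7.93 RPKM after dehydration and 12.8 and 13.6 RPKM in the control. The nearby β-expansin LOC_Os03g01270_1 was not in the set, with 25.1 and 19.3 RPKM after rehydration, 2.79 and 3.11 RPKM after dehydration and 7.11 and 13.6 RPKM in the control. It too had its highest values after rehydration and its lowest after dehydration.

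The second pair on chromosome 3 was LOC_Os03g16950_1, at 110 and 131 RPKM after rehydration, 8.81 and 8.44 RPKM after dehydration and 12.7 and 20.6 RPKM in the control, and LOC_Os03g16960_1, whose rehydration values were 26.3 and 31.1 RPKM. On chromosome 10, LOC_Os10g36100_1 was at 108 and 63.1 RPKM after rehydration, 24.1 and 6.12 RPKM after dehydration and 0.960 and 1.39 RPKM in the control, and its neighbour LOC_Os10g36090_1 at 8.58 and 14.9, 0.594 and 0.540, and 1.61 and 0.584 RPKM in the same order of conditions. In this pair the dehydration values lay far above the control in one gene and overlapped it in the other. The last pair was LOC_Os12g38290_1 and LOC_Os12g38300_1 on chromosome 12, at 12.0 and 9.81 RPKM and at 15.2 and 20.4 RPKM after rehydration. Neighbours of similar sequence can share reads, which was not tested because no sequence of these loci was used here, so the values within a pair may not be independent.

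**Figure D3:**
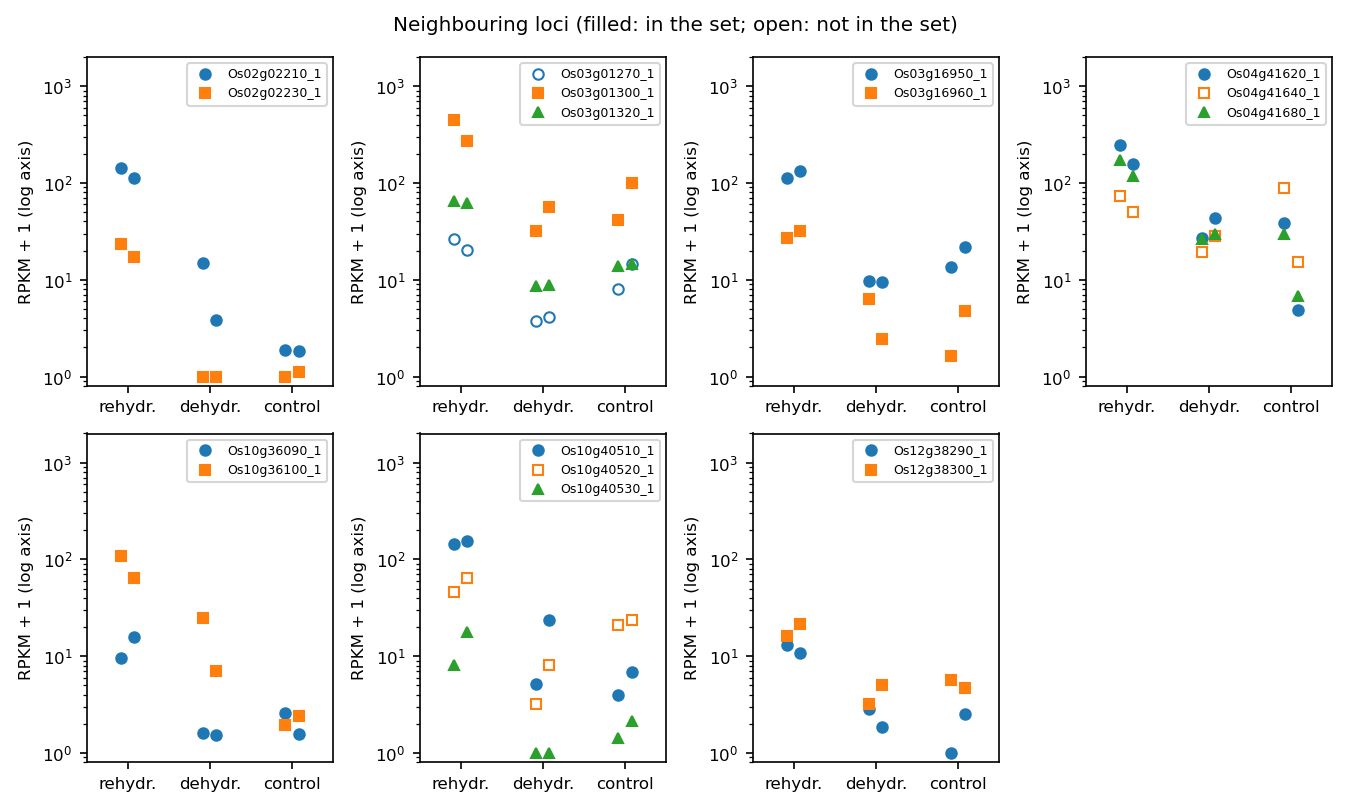
RPKM + 1 on a log axis after rehydration, after dehydration and in the control for the 7 pairs of neighbouring loci, with 2 points per condition for the 2 libraries. Filled symbols are transcripts of the set and open symbols are neighbours outside it, and LOC_Os04g41620_1, LOC_Os04g41640_1 and LOC_Os04g41680_1 are all lower in the second control library.

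The rule was applied to single transcript models, and 8 of the 45 came from 7 loci with several models. How reads shared by the models of a locus were assigned is not given in the sources used here. When all models of a locus were summed, 40 of the 44 loci still met the rule, and of the 7 loci with several models 3 did so. The sum for the dormancy/auxin associated locus LOC_Os09g26620 was 560 and 410 RPKM after rehydration, 154 and 112 RPKM after dehydration and 166 and 159 RPKM in the control. LOC_Os11g15040, whose model 4 was in the set, summed to 185 and 183 RPKM after rehydration, 66.8 and 46.0 RPKM after dehydration and 55.1 and 91.2 RPKM in the control. LOC_Os03g01320 had a single model above 0.

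In the 4 other loci the sum did not meet the rule. The glycoside hydrolase locus LOC_Os07g35480 summed to 54.9 and 53.2 RPKM after rehydration, 22.1 and 31.7 RPKM after dehydration and 8.66 and 18.5 RPKM in the control. LOC_Os05g23440 summed to 25.4 and 23.0 RPKM after rehydration, 18.9 and 17.5 RPKM after dehydration and 6.47 and 8.51 RPKM in the control. Both loci as a whole were highest after rehydration, but by less than 2-fold. LOC_Os06g07905 summed to 16.5 and 21.2 RPKM after rehydration, 6.38 and 7.72 RPKM after dehydration and 12.8 and 13.0 RPKM in the control. Its model in the set made up 100% and 94.1% of the sum after rehydration, 100% and 80.6% after dehydration and 53.3% and 41.1% in the control. LOC_Os10g36550 summed to 147 and 137, 120 and 124, and 106 and 84.4 RPKM in the same order. LOC_Os06g07905 and LOC_Os10g36550 as a whole were also highest after rehydration, by less than 2-fold over the highest other value. For these 4 loci the split between models is uncertain, and so is the place of the single model in the set.

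**Figure D4:**
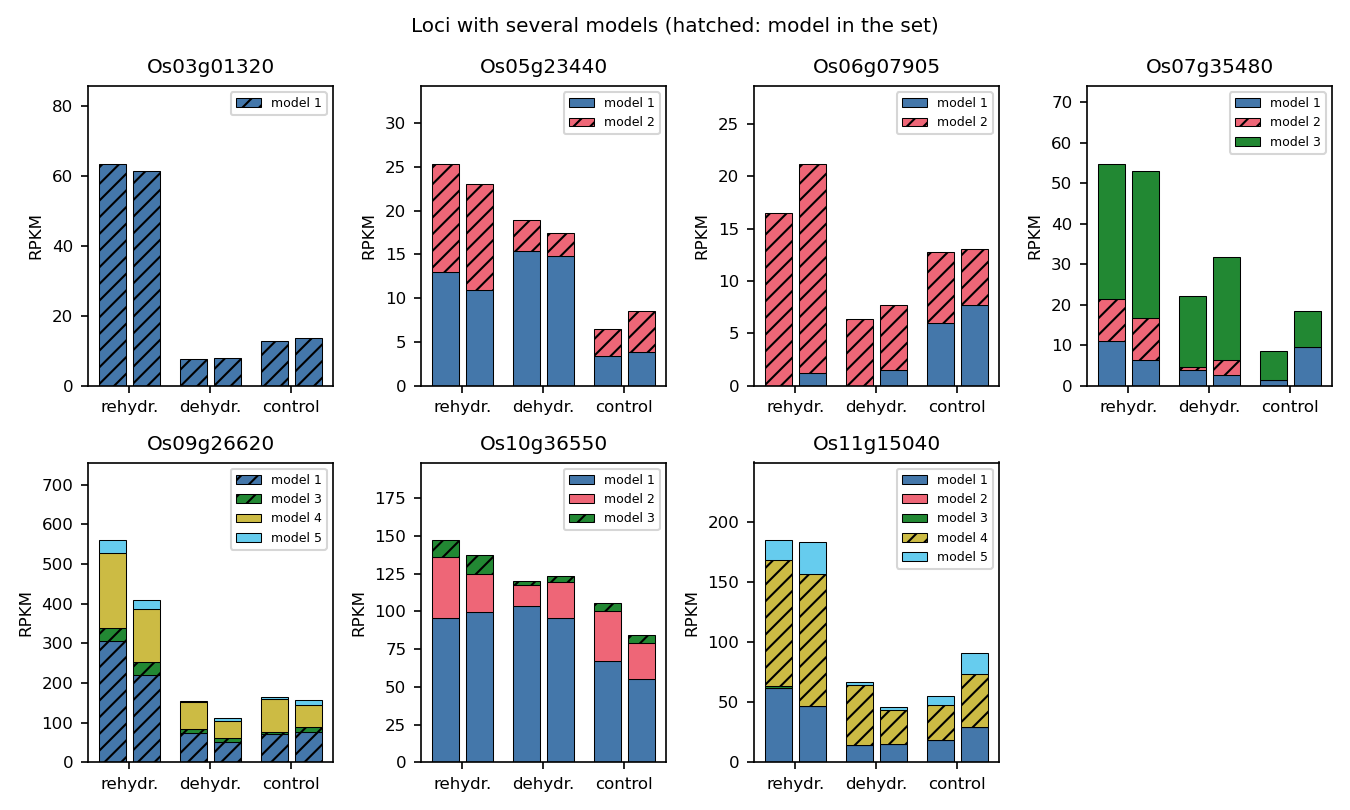
RPKM of each transcript model, stacked per library, for the 7 loci with several models that have a model in the set (hatched), with the 2 libraries each of rehydration, dehydration and control. Models listed at 0 in all libraries are not drawn, and in LOC_Os10g36550 the hatched model is a small part of a locus whose sum is 147 and 137 RPKM after rehydration and 120 and 124 RPKM after dehydration.

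The rule did not directly compare dehydration with control. That comparison asks whether the transcripts had already changed in the dried shoots before water was returned. The rule did cap both conditions relative to rehydration, which can limit how far they differ, so the shares below only describe the set. The comparison was tested with limma on log2(RPKM + 1) over all 26790 transcripts. A transcript was called at a Benjamini-Hochberg adjusted p under 0.01 and a fold over 2. The spread was estimated with the rehydration libraries included. With the control and dehydration libraries alone, 0 were called higher and 0 lower. Of the 45, 3 were called higher in dehydrated than in control shoots (background 8.97% of all transcripts tested), 5 were called lower (background 13.4%), and 37 were not called. Those outside the 41 that reached 1 RPKM in at least 2 libraries outside rehydration were tested only through their rehydration values. Among the 10004 transcripts with a mean of at least 10 RPKM after rehydration, which all 45 have, 15.6% were called higher and 19.6% lower, and the difference of the set from either background was not tested. An unadjusted p under 0.05, whatever the fold, was found for 19 of the 45, beside 52.1% of all transcripts. Without a model, both dehydration values lay above both control values in 8 transcripts (background 28.0%, and 38.2% of the 10004) and below both in 13 (background 45.8%, and 42.8% of the 10004), and the values overlapped in 24. The median log2 fold change of the 45 was -0.08, beside -0.30 over all transcripts tested and -0.07 among those with a mean of at least 10 RPKM after rehydration. The single values ranged between -2.13 and 2.63, with 22 transcripts above 0 and 23 below.

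The 3 transcripts called higher on dehydration were PIII1, LOC_Os09g10010_1 and LOC_Os11g10710_1. For PIII1 the log2 fold change was 2.22 (SE 0.35, limma adjusted p = 0.0045). For LOC_Os09g10010_1 it was 1.61 (SE 0.28, limma adjusted p = 0.0063). LOC_Os11g10710_1 was at 17.3 and 17.9 RPKM after rehydration, 7.35 and 8.52 RPKM after dehydration and 2.99 and 2.80 RPKM in the control, a log2 fold change of 1.2 (SE 0.21, limma adjusted p = 0.0063). All 3 thus lay above the control after dehydration and higher still after rehydration, the latter step being set by the rule. LOC_Os10g36100_1 and the aminotransferase LOC_Os02g02210_1 had log2 fold changes of 2.63 (SE 0.59) and 2.02 (SE 0.59) but missed the threshold (limma adjusted p = 0.015 and 0.036), and in both the 2 dehydration libraries differed by over 2-fold.

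The 5 transcripts called lower on dehydration included the β-expansin LOC_Os10g40700_1, with a log2 fold change of -2.13 (SE 0.30, limma adjusted p = 0.0033). Another was the adenine phosphoribosyltransferase-like LOC_Os07g30150_1, with -1.03 (SE 0.18, limma adjusted p = 0.0065). LOC_Os11g15340_2 was at 52.6 and 48.3 RPKM after rehydration, 1.78 and 3.37 RPKM after dehydration and 9.29 and 11.5 RPKM in the control (log2 fold change -1.70). LOC_Os02g11130_1 was at 15.1 and 11.5 RPKM after rehydration, 0.878 and 1.40 RPKM after dehydration and 4.66 and 5.61 RPKM in the control (log2 fold change -1.53). LOC_Os05g16420_1 was at 35.2 and 29.5 RPKM after rehydration, 4.20 and 4.20 RPKM after dehydration and 11.8 and 11.6 RPKM in the control (log2 fold change -1.28). In these 5 the dried shoots held the least and the re-watered shoots, by the rule, the most. CHIT3 and the P450 were not called, with log2 fold changes of 0.99 (SE 0.65) and -0.08 (SE 0.30). The P450 was at 0 or 0.112 RPKM in the dehydration and control libraries and was tested only through its rehydration values. It could therefore not have been called.

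**Figure D5:**
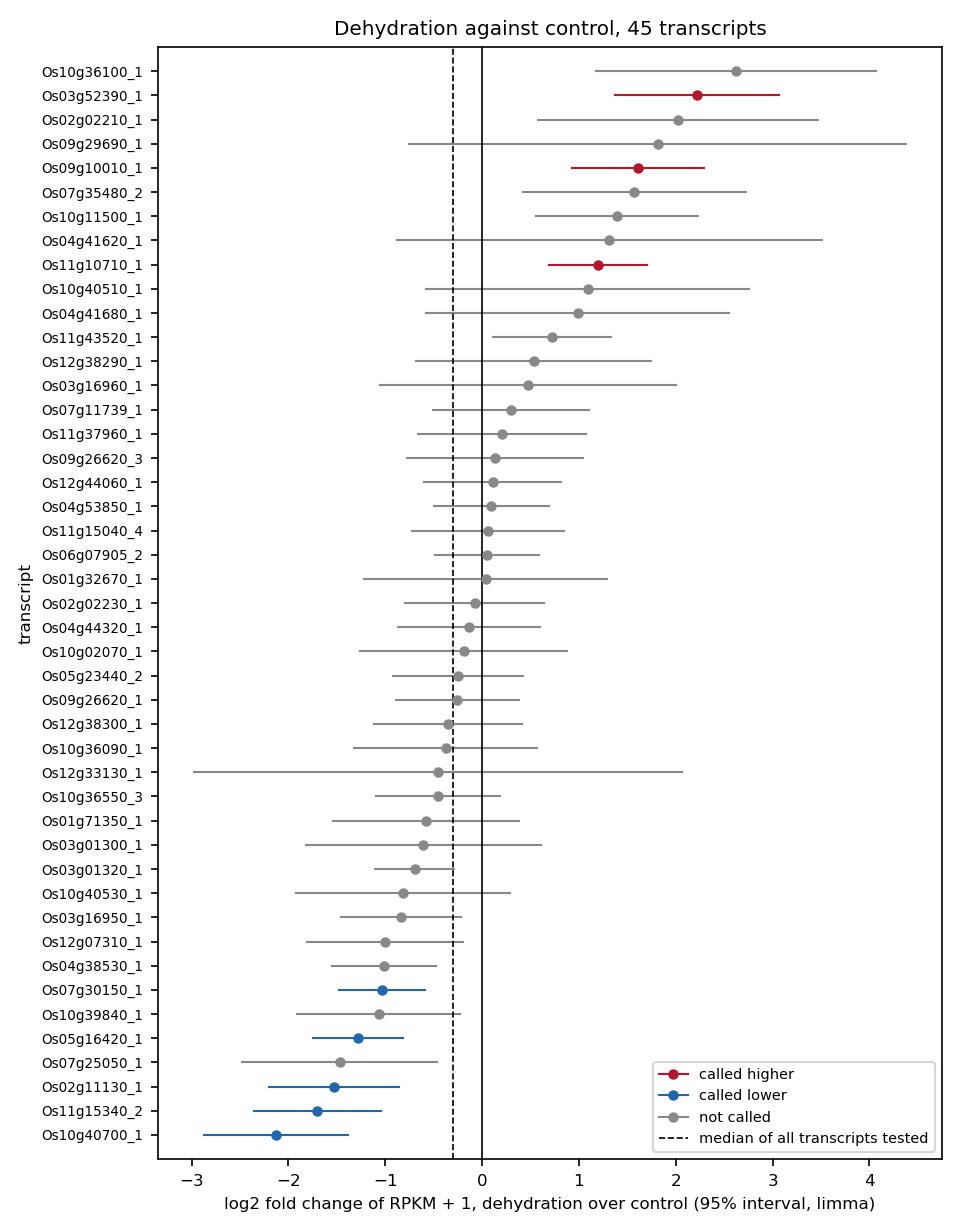
Log2 fold change of RPKM + 1, dehydration over control, for the 45 transcripts, with 95% intervals from limma. Red marks the 3 transcripts called higher, blue the 5 called lower and grey the 37 not called, and the dashed line is the median of all transcripts tested (-0.30).

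Most transcripts of the table had a lower RPKM after dehydration than in the control, and scaling the libraries by their median ratio moved the median log2 fold change of all transcripts by 0.29. Relative to the median of all transcripts, 27 of the 45 lay above and 18 below. With this scaling 4 of the 45 were called higher and 2 lower (12.6% and 10.3% of all transcripts), and with quantile normalization 5 and 2 (10.3% and 11.2%). PIII1, LOC_Os09g10010_1 and LOC_Os11g10710_1 stayed among the transcripts called higher in both, and LOC_Os10g40700_1 and LOC_Os11g15340_2 among those called lower. With 1 library left out, a condition keeps a single library, and most of the calls then held in none of these fits. No call held in every such fit. Leaving out the first or second control library, the first dehydration library or either rehydration library gave 0 or 1 higher and 0 lower, and leaving out the second dehydration library gave 3 and 1. The 1 called higher without the second control library was not among the 3 called with all libraries, and of the 3 called higher without the second dehydration library 1 was.

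The hormone-responsive genes used here are the study's lists for ABA and the auxin IAA, from treated seedling shoots, and its jasmonate and trans-zeatin lists were not analysed here. Of 548 tested transcripts in the list raised by ABA, 273 were called higher and 22 lower in dehydrated shoots, and 1 was in the set, the dormancy/auxin associated LOC_Os09g26620_1. Of 519 in the list lowered by ABA, 21 were called higher and 259 lower, and 2 were in the set, the β-expansin LOC_Os10g40700_1 and LOC_Os07g30150_1. The lists raised and lowered by IAA held 175 and 72 tested transcripts, with 67 and 7 called higher, 14 and 21 called lower, and 2 and 0 in the set. The 2 were LOC_Os07g35480_2 and LOC_Os09g10010_1. Both rehydration values were the highest of the 6 in 13.7% of the list lowered by ABA and 2.37% of the list raised by it, and in 7.43% and 16.7% of the lists raised and lowered by IAA, beside 7.88% of all transcripts tested. None of 44 nitrogen genes, 141 hormone metabolism genes and 443 transcription factors of the study was in the set. The set made up 0.168% of all transcripts tested, beside 0.182% and 0.385% of the lists raised and lowered by ABA. It made up 1.14% and 0% of the lists raised and lowered by IAA, the former from 2 transcripts. With a share of 0.168% over all transcripts, the presence or absence of members in lists of these sizes is not a result about the set. After dehydration, 11, 44 and 182 of these were called higher and 12, 30 and 108 lower, and since the study chose these 3 lists on the same samples their direction is not independent evidence.

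Among the families named in the descriptions of the ABA and IAA lists, the expansins and the dormancy or auxin associated proteins were picked after their values were seen. They had the largest shares with both rehydration values highest, 66.7% and 100%, beside 7.88% of all transcripts tested. The set held a member of each, but also of the glycoside hydrolases or glucanases and of the phosphoribosyltransferases. Of 6 tested expansins, 4 had both rehydration values above all others, 1 of them in the set, and 4 were called lower and 0 higher in dehydrated shoots. The β-expansin LOC_Os10g40720_1, near LOC_Os10g40700_1, was at 103 and 103 RPKM after rehydration, 1.34 and 3.79 RPKM after dehydration and 84.1 and 88.9 RPKM in the control. The α-expansin OsEXPA4 (LOC_Os05g39990_1) was at 48.2 and 48.9 RPKM after rehydration, 2.25 and 2.53 RPKM after dehydration and 27.2 and 31.7 RPKM in the control. In both, the rehydration values were above the control but below the 2-fold limit. All 3 dormancy or auxin associated transcripts were highest after rehydration, LOC_Os09g26620_1 because the rule chose it so, and none was called on dehydration. LOC_Os11g44810_1 was at 1562 and 1459 RPKM after rehydration, 1056 and 907 RPKM after dehydration and 1179 and 974 RPKM in the control. This order depends on scaling. Divided by the median-ratio factors of their libraries (1.12 and 0.809), its second rehydration value falls just below its first dehydration value.

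CHIT3 was not in the ABA or IAA lists. Of the 5 chitinases that were, 4 were called higher and 0 lower after dehydration, and 1 had its highest values after rehydration, the class III chitinase LOC_Os10g28050_1 at 41.0 and 41.1 RPKM, with 20.1 and 11.8 RPKM after dehydration and 13.7 and 26.6 RPKM in the control. Of 11 glycoside hydrolases or glucanases 3 were called higher and 0 lower, and LOC_Os07g35480_2 was the one with its highest values after rehydration. Of 17 cytochromes P450, 4 were called higher and 3 lower and 2 were highest after rehydration. Of 5 proteinase inhibitors 1 was called higher and 1 lower, and of 4 aminotransferases 2 were called higher and 0 lower, with none of either highest after rehydration (PIII1 and LOC_Os02g02210_1 were not in these lists). Of 2 phosphoribosyltransferases both were called lower on dehydration, and LOC_Os07g30150_1 was highest after rehydration. These families were counted within the ABA and IAA lists only, so a family can move as its hormone list does.

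The set ends at a limit of 2-fold. Just inside it were LOC_Os04g38530_1 with a ratio of 2.02, at 15.8 and 15.2 RPKM after rehydration, 2.78 and 3.67 RPKM after dehydration and 7.53 and 7.45 RPKM in the control, then LOC_Os10g36550_3 with 2.03 and LOC_Os11g10710_1 with 2.04. Just outside were LOC_Os10g40520_1 and LOC_Os07g18990_1 with 1.98 each and LOC_Os02g42450_1 with 1.94. The cytosolic glutamine synthetase OsGS1.2 (LOC_Os03g12290_1), which assimilates ammonium, was also outside, with 27.9 and 22.8 RPKM after rehydration, 9.55 and 10.2 RPKM after dehydration and 10.2 and 12.6 RPKM in the control. Its ratio was 1.81, and its dehydration and control values overlapped. After median-ratio scaling of the libraries, 33 of the 45 still met the rule, and the 12 that did not included PIII1, LOC_Os07g35480_2, LOC_Os10g36100_1 and LOC_Os11g10710_1.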

How the data were processed

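Stranded mRNA libraries were read as pairs on a MiSeq. The authors mapped the trimmed reads to the rice genome (MSU v7.0) in CLC Genomics Workbench 20.0.4, accepting 1 mismatch, and computed RPKM there. The deposited table holds RPKM per transcript model and library, without counts or further scaling between libraries. The authors' edgeR test needs counts, so limma 3.58.1 (R 4.3.3) was used on log2(RPKM + 1), with a trend on abundance, 1 fit of 3 groups, 3 residual degrees of freedom and the study's thresholds. Fold changes on this scale understate those of low transcripts. Depth was compared through exact ratios of values under 1 RPKM.

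The 45 members, the lists and the tests were chosen with earlier results of these data known. Named transcripts were those with a description, the 10 of largest ratio, the 10 of highest rehydration mean, up to 5 called in each direction, 3 on each side of the 2-fold limit, and the genes that the study named for this pattern. Others named here for their replicate spread, their place beside a member or their family were chosen after their values were seen. Descriptions of LOC_Os02g02210_1 and LOC_Os03g52390_1 came from lists that the study chose on these samples, and the 20 family lists from its ABA and IAA tables. Those of CHIT3 and the P450 came from the study's text, which picked both on these samples as examples of genes preferring rehydration. Of the families not described above, tested transcripts, calls higher and calls lower were 12, 4 and 5 for peroxidases, 6, 2 and 2 for glutathione S-transferases, 4, 1 and 3 for nitrogen assimilation and transport, 6, 1 and 0 for WRKY, 3, 3 and 0 for thaumatin or pathogenesis-related proteins, 5, 0 and 3 for laccase, dirigent or phenylalanine ammonia-lyase, 4, 1 and 1 for heat shock proteins, 20, 0 and 10 for ribosomal proteins, 2, 0 and 1 for histones, 58, 11 and 7 for kinases and 11, 4 and 1 for lipid transfer proteins, with 0 members in each and no tested aquaporin. The set made up 0.168% of all transcripts tested, so absence from families of this size is not a result. None of the 44 loci matched the 39387 genes of the reference table, and promoters and genome coordinates were not analysed here. Other steps used Python 3.11.15, pandas 2.3.3, numpy 2.4.6 and matplotlib 3.10.9.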

Additional observations from a re-analysis of the deposited data

How the results depend on the processing

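With 2 pools per condition and 3 residual degrees of freedom, calls near the threshold change easily. Against 3 members called higher and 5 lower on dehydration, quantile normalization gave 5 and 2, median-ratio scaling 4 and 2, a pseudocount of 5 gave 2 and 1, no filter on low values 1 and 4, and the control and dehydration libraries alone 0 and 0, a fit that leaves 2 residual degrees of freedom. With the fold over 2 kept, an adjusted p under 0.05 gave 7 and 8 and an unadjusted p under 0.05 gave 7 and 9. Without 1 library, 0 to 3 were called higher and 0 to 1 lower, and the calls over all transcripts were 318 to 3694, against 5987. The rule held 101 transcripts at 1.5 times, 22 at 3 times, 72 at a mean of 5 RPKM and 27 at 20 RPKM, 58 to 86 without 1 library, 34 after median-ratio scaling and 41 loci on summed models. Of the 44 loci, 29 met it on summed models after that scaling. The log2 fold change of 7 of the 45 members changed sign under median-ratio scaling (4) or quantile normalization (5). Among the 30 named transcripts, 3 did so: LOC_Os03g12290_1 to 0.15 under median-ratio scaling and 0.0095 under quantile normalization, LOC_Os09g26620_1 to 0.10 under median-ratio scaling, and LOC_Os10g36090_1 to 0.049 under quantile normalization. None of these 3 was called under either. Without 1 library, 19 of the 45 members changed sign in at least 1 fit, 0 of them called. Among the 30 named transcripts, the values of 9 ran from below to above 0: LOC_Os02g42450_1 -0.14 to 0.32, LOC_Os03g01300_1 -1.23 to 0.013, LOC_Os03g16960_1 -0.29 to 1.25, LOC_Os04g41620_1 -0.17 to 2.80, LOC_Os04g41680_1 -0.074 to 2.05, LOC_Os09g26620_1 -0.53 to 0.016, LOC_Os10g40510_1 -0.011 to 2.19, LOC_Os11g37960_1 -0.10 to 0.52 and LOC_Os12g38290_1 -0.14 to 1.2. The labels do not say whether libraries of equal replicate number share a batch (correlations of replicate deviations 0.20, 0.13 and 0.06). A fit with the replicate number as a block called 3 members higher and 5 lower, as without it.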
